A study of Mus musculus with 6 samples.

Results

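Keratins are the intermediate filament proteins of epithelial cells. Each filament is built from pairs of an acidic type I keratin and a basic type II keratin, so that Krt18 is made with Krt8 in simple and luminal epithelium and Krt14 with Krt5 in basal epithelium. In the mammary gland, Krt8, Krt18, Krt19 and Krt7 mark the luminal cells that line ducts and alveoli, Krt5, Krt14, Krt15 and Krt17 mark the basal and myoepithelial layer, and Krt1, Krt10, Krt6a and related members appear in squamous and suprabasal epithelium. The keratin gene family was taken here as every gene whose symbol is Krt followed by a number and at most 1 letter. This gave 54 of the 55385 genes in the tables, of which 28 encode type I and 26 type II keratins. By lists set from known tissue use, 5 were luminal, 4 basal, 13 squamous, 24 of hair follicle and hair, and 8 other. Krt85, a hair keratin of these lists, had no matching symbol.

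RNA came from tumors of female NeuT/ATTAC mice, with 3 control and 3 DMHCA libraries. All of the mice carried an activated rat ErbB2 gene from the MMTV-NeuT line, whose promoter is active in mammary and other secretory epithelium, together with an FKBPv-caspase-8 fusion under the FABP4 promoter of fat cells. The dimerizer AP20187, injected i.p. at 0.4 mg/kg 3 times per week from 6 weeks of age, activates the caspase, and fat is partly replaced by fibrotic tissue. From 8 weeks of age the treated mice received DMHCA, an LXR agonist, as 0.05% of the diet, or about 100 mg/kg. The control label, AP20187 Vehicle, can be read as AP20187 with vehicle or as vehicle alone, and the study's description of the controls as AP20187-treated was followed. The labels name the tissue as mammary gland fibrosis, whereas the study describes tumors.

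Expected counts, which are RSEM's estimates of the reads from each gene, summed to between 46358654 and 63420620 per library. DMHCA libraries 1 and 3 were nearly the same, with a biological coefficient of variation of 0.0327 against 0.376 to 0.579 in the other 5 pairs within a group. By a chi-square test 18.1% of 13380 genes still differed between them at the 0.05 level, against 82.1% to 87.8% in the other pairs. They were summed and counted as 1 sample, so n is 3 control samples and 2 DMHCA samples. Markers of other tissues set the control libraries apart. Control library 1 held 5131 TPM (the RSEM level of a gene per transcript length) of the salivary gene Bpifa2, against 2.59 to 21.3 TPM in the other 5 libraries. Control library 3 held the highest sums of the lymphoid follicle list (321 TPM, against 1.64 to 31.9), of the adipocyte list (865 TPM, against 67.7 to 191) and of the casein gene Csn2 (13320 TPM, against 15.2 to 766). In bulk tissue fewer cells of a type and less RNA per cell cannot be told apart.

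The promoters of 4 keratins are shown because these genes carry the results below: Krt8 and Krt18 made up most keratin RNA, and Krt7 and Krt23 had the smallest p-values among the well-expressed members. Each is the RefSeq sequence (GRCm38.p6) from 250 bases before to 50 bases after the RefSeq start of the gene, 5′ to 3′ on the strand of the gene. RefSeq starts can differ from the outermost GENCODE starts used for gene coordinates below. For all 4 genes the RefSeq start lies inside the GENCODE gene, and farthest inside for Krt7. The GENCODE gene of Krt7 includes transcripts that begin farther upstream. The windows are chr15:102004293-102004592 on the minus strand for Krt8, chr15:102027966-102028265 on the plus strand for Krt18, chr15:101412153-101412452 on the plus strand for Krt7 and chr11:99493071-99493370 on the minus strand for Krt23. Capitals mark TATAAA, the TATA box, searched on the strand of the gene, and AGGTCA, a core sequence bound by nuclear receptors, searched on both strands.
Krt8: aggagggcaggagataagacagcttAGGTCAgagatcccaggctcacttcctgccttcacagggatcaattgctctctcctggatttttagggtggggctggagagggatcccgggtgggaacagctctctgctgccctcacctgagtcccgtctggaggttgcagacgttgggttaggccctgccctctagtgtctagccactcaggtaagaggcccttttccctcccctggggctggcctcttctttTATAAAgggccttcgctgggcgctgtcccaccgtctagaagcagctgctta
Krt18: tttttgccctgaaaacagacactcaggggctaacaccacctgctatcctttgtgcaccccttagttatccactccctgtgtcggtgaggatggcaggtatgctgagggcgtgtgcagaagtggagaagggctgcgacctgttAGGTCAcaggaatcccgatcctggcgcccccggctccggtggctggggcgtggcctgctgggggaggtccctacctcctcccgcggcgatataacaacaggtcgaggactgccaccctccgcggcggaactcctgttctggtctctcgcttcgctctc
Krt7: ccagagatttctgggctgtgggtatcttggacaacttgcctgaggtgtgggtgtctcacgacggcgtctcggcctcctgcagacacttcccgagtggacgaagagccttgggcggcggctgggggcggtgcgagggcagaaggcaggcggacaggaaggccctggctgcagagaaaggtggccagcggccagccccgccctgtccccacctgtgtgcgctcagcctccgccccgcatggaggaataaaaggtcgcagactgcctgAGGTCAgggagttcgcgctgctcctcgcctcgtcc
Krt23: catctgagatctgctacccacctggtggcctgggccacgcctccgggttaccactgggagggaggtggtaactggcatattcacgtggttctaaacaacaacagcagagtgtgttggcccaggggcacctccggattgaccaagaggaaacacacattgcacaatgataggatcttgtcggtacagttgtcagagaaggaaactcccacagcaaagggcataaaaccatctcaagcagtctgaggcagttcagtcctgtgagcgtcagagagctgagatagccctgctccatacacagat

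AGGTCA occurred in the Krt8, Krt18 and Krt7 windows, at positions -225, -108 and 15 from the RefSeq start, where 0 is the first transcribed base. It did not occur in the Krt23 window. Entries of full length were found for 37 of the 54 keratins, 10 of them among the keratins tested for expression, and 10 of the 37 windows (27.0%) held AGGTCA, against 16.3% of 32851 promoters of all genes. A spaced repeat of the same core, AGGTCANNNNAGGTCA, to which LXR binds with RXR, was found in 0 keratin windows and in 5 of all promoters (0.0152%). Only exact copies within the windows were searched, and so few promoters held one that nothing can be read from the 0. TATAAA was present in 17 of the 37 keratin windows (45.9%) and in 8.32% of all promoters, and in the Krt8 window it began at position -1. The GC box GGGCGG, searched on both strands, was present in 2 keratin windows (5.41%), 1 of them that of Krt7, and in 35.7% of all promoters. Counted at any position, TATAAA was thus more frequent and GGGCGG less frequent in keratin windows than in promoters as a whole. This is a description without a test. Of the 10 tested keratins with a window, 3 held TATAAA (Krt10, Krt71 and Krt8) and 1 held GGGCGG (Krt7).

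The keratin RNA of these tumors was that of luminal epithelium. Krt18, the type I partner of Krt8, was at 1224, 1184 and 842 TPM in control libraries 1, 2 and 3 and at 1872, 1407 and 1903 TPM in DMHCA libraries 1, 2 and 3. Krt8 was at 748, 624 and 644 TPM in the control libraries and at 1184, 1032 and 1221 TPM in the DMHCA libraries. Krt8 was higher in every DMHCA library than in every control library, and Krt18 was also without overlap on this scale. Together these genes gave 90.4% to 96.6% of all keratin TPM in 5 libraries and 72.6% in control library 3. The ratio of Krt8 to Krt18 TPM lay between 0.527 and 0.764, and the control and DMHCA libraries overlapped.

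**Figure D1:**
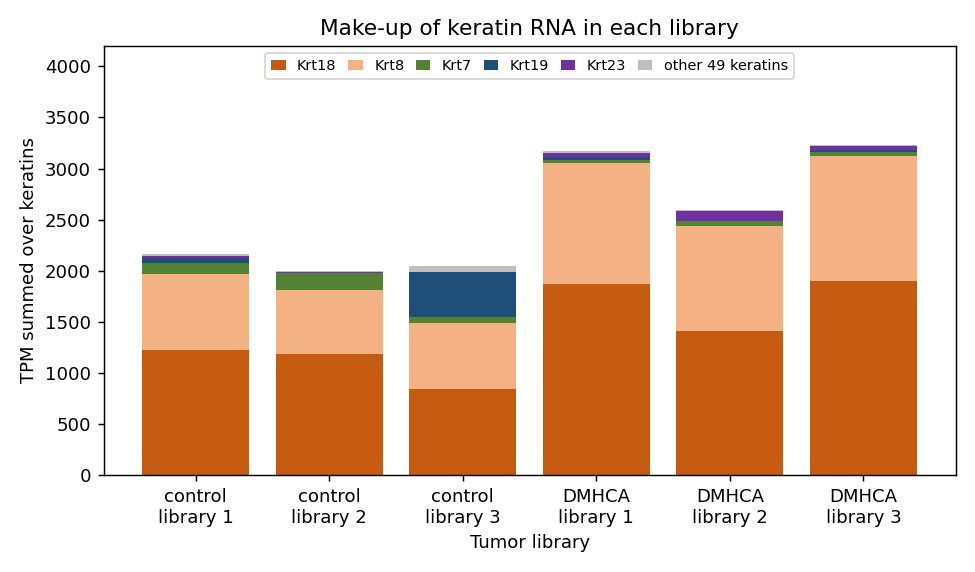
Stacked bars give the TPM summed over the 54 keratins in each of the 6 tumor libraries, split by gene. The sums run from 2000 to 2165 TPM in the control libraries and from 2595 to 3234 TPM in the DMHCA libraries, and Krt19 forms its largest share in control library 3, with 435 TPM.

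The 54 keratins summed to 2071 ± 84.9 TPM in the control samples (SD, n = 3) and to 2898 ± 428 TPM in the DMHCA samples (SD, n = 2), and the samples did not overlap. The sum of the luminal list was 2029 ± 79.4 TPM in controls and 2815 ± 465 TPM after DMHCA. TMM-normalized counts, which correct for library composition, gave smaller differences between the groups, and neither leading gene passed the test. SE below is the standard error of a log2 fold change, and adjusted p-values are those of the edgeR quasi-likelihood test over all genes. Krt8 (ENSMUSG00000049382, chromosome 15 of GRCm38, 101996698 to 102004482) had 62266 ± 5984 normalized counts in controls and 90433 ± 15518 in DMHCA samples. The log2 fold change was 0.54, with SE 0.33 and adjusted p = 0.675 by edgeR. Krt18 (ENSMUSG00000023043, chromosome 15, 102028180 to 102032027) had 71904 ± 19779 and 94666 ± 25419 normalized counts. Here the log2 fold change was 0.40, with SE 0.40 and adjusted p = 0.775 by edgeR. On that scale the samples of Krt18 overlapped: the 92347 of control library 2 exceeded the 76692 of DMHCA library 2. Krt8 overlaps Gm36026 on the opposite strand, and reads of the overlap cannot be assigned because the use of strand is not given in the sources used here.

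Of the 6 genes of the general epithelial list, 2 had higher and 4 lower means after DMHCA. Epcam, an adhesion molecule of epithelial cells, differed by -0.12 on the log2 scale (SE 0.39) and Cldn3, a tight junction claudin, by 0.22 (SE 0.41). At an unadjusted p under 0.05 there was 1 higher gene, the epithelial splicing factor Esrp1 (log2 fold change 0.65), and 1 lower gene, the claudin Cldn4 (-1.11), both with an adjusted p = 0.644 by edgeR. Such a p was given to 3.53% of all genes in the higher and 4.08% in the lower direction. The summed level of the list was 1542 TPM in control library 3, below the 2006 to 2676 TPM of the other 5 libraries.

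Krt7 was lower after DMHCA in each library. Its levels were 105, 170 and 61.9 TPM in control libraries 1, 2 and 3 and 32.9, 45.99 and 33.2 TPM in DMHCA libraries 1, 2 and 3, so that every DMHCA library lay below every control library. Normalized counts were 13739 ± 8899 in control samples (SD, n = 3) and 4146 ± 630 in DMHCA samples (SD, n = 2). The log2 fold change of -1.73 had SE 0.57 and adjusted p = 0.644 by edgeR. Krt7 (ENSMUSG00000023039, chromosome 15, 101411043 to 101430313) encodes a type II keratin of simple and ductal epithelium. Per unit of Krt8, the other abundant type II luminal keratin, Krt7 amounted to 0.0962 to 0.273 in the control libraries and to 0.0272 to 0.0446 in the DMHCA libraries. The size of the difference depended on control library 2, its highest library, without which the log2 fold change was -1.08. Krt7 overlaps Gm671 on the opposite strand.

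Krt23 had a higher level after DMHCA. This type I keratin was at 24.7, 7.03 and 5.43 TPM in control libraries 1, 2 and 3 and at 40.4, 97.3 and 39.7 TPM in DMHCA libraries 1, 2 and 3. The lowest DMHCA library lay above the highest control library, and DMHCA library 2 lay above the other DMHCA libraries. Krt23 (ENSMUSG00000006777, chromosome 11, 99477974 to 99493137) had 849.8 ± 634 normalized counts in controls (SD, n = 3) and 4239 ± 2271 in DMHCA samples (SD, n = 2). Its log2 fold change of 2.32 had SE 0.65 and adjusted p = 0.644 by edgeR. Relative to Krt18 the TPM of Krt23 was 0.00594 to 0.0202 in the control libraries and 0.0208 to 0.0692 in the DMHCA libraries. The log2 fold change was 1.66 without DMHCA library 2, which leaves 1 DMHCA sample assumed to vary like the controls, and 3.10 without control library 1. Krt23 was the keratin with the third highest TPM in each DMHCA library, a place held by Krt7 in control libraries 1 and 2 and by Krt19 in control library 3.

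**Figure D2:**
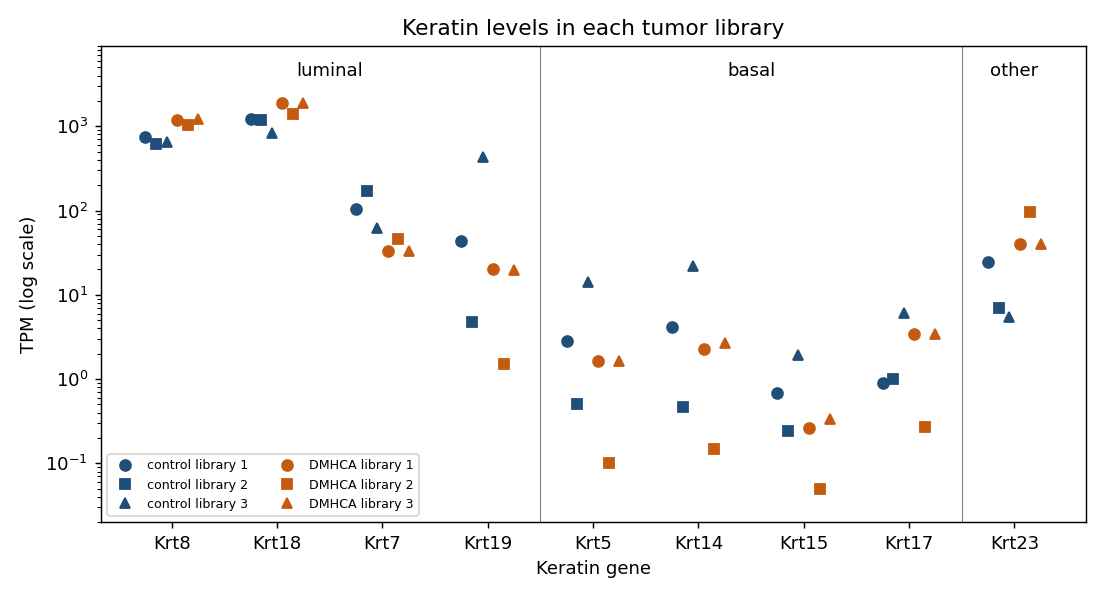
Points give the TPM (log scale) of 9 keratins in each library, blue for control and orange for DMHCA, with 1 marker shape per library number. Krt7 lies lower and Krt8, Krt18 and Krt23 lie higher in all DMHCA libraries, while Krt19, Krt5, Krt14 and Krt15 are highest in control library 3 and lowest in DMHCA library 2.

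Krt19, a type I keratin of ducts and other simple epithelium, varied most between libraries of the same group among the tested luminal keratins. It was at 43.9, 4.73 and 435 TPM in control libraries 1, 2 and 3 and at 20.1, 1.51 and 19.5 TPM in DMHCA libraries 1, 2 and 3. Control library 3 was far above the rest, and control library 2 lay below DMHCA libraries 1 and 3, so the groups overlapped. Krt19 (ENSMUSG00000020911, chromosome 11, 100140810 to 100148665) had 9231 ± 13663 normalized counts in controls (SD, n = 3) and 572 ± 701 in DMHCA samples (SD, n = 2). The log2 fold change was -4.01 (SE 1.95, adjusted p = 0.644 by edgeR), and -1.25 without control library 3. Krt20, a keratin of intestinal and urothelial epithelium, had at most 0.34 TPM and was not tested.

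The basal keratins Krt14 and Krt5 followed nearly the same order of libraries as Krt19. Krt14 (ENSMUSG00000045545, chromosome 11, 100203162 to 100207548), the type I keratin of basal cells, was at 4.19, 0.47 and 22.2 TPM in the control libraries and at 2.27, 0.15 and 2.68 TPM in the DMHCA libraries. Its type II partner Krt5 (ENSMUSG00000061527, chromosome 15, 101707070 to 101712898) was at 2.81, 0.51 and 14.3 TPM in the control libraries and at 1.63, 0.10 and 1.66 TPM in the DMHCA libraries. Both genes were highest in control library 3, next in control library 1, and lowest in DMHCA library 2, and the groups overlapped. The ratio of Krt5 to Krt14 TPM stayed between 0.619 and 1.09 in the 6 libraries while the level of Krt14 spanned 0.15 to 22.2 TPM, and the ratio of Krt19 to Krt14 TPM stayed between 7.29 and 19.6.

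Krt15, a keratin of basal and progenitor cells, was at 0.68, 0.24 and 1.91 TPM in the control libraries and at 0.26, 0.05 and 0.34 TPM in the DMHCA libraries. Krt17, a basal keratin induced by stress and injury, was at 0.90, 1.0 and 6.12 TPM in the control libraries and at 3.44, 0.27 and 3.39 TPM in the DMHCA libraries, so that DMHCA libraries 1 and 3 lay above control libraries 1 and 2. Krt15 (chromosome 11, 100131758 to 100135928), Krt19, Krt14 and Krt17 (chromosome 11, 100256217 to 100261029) lie in this order in the type I cluster. The 4 basal keratins summed to 18.4 ± 22.8 TPM in controls (SD, n = 3) and to 4.20 ± 5.14 TPM after DMHCA (SD, n = 2), and basal keratins made up 2.17% of keratin TPM in control library 3 and 0.022% to 0.396% in the other 5 libraries.

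For the basal list edgeR gave 0 of 4 genes an adjusted p under 0.05, and also 0 of 4 an unadjusted p under 0.05, a level that 7.61% of all genes reached. DESeq2 likewise gave 0 of 4 an adjusted p under 0.05. Without the filter on low counts Krt14, Krt5 and Krt15 passed 0.05 unadjusted, with adjusted p-values of 0.599, 0.494 and 0.534 by edgeR. With the filter, Krt14, Krt5 and Krt15 had 3 control samples but 1 DMHCA sample above its cut. The control samples were thus enough to bring them into the test. The log2 fold changes were -2.69 for Krt14 (SE 1.78), -2.81 for Krt5 (SE 1.62), -2.53 for Krt15 (SE 1.3) and -0.64 for Krt17 (SE 1.26). On normalized counts the groups overlapped for all 4, whereas 13.8% of all genes were higher and 12.2% lower after DMHCA without overlap. Without control library 3 these values were -0.72, -0.96, -1.43 and 0.75, so the direction of Krt17 was turned. Without DMHCA library 2 they were -1.72, -1.84, -1.63 and 0.30.

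**Figure D3:**
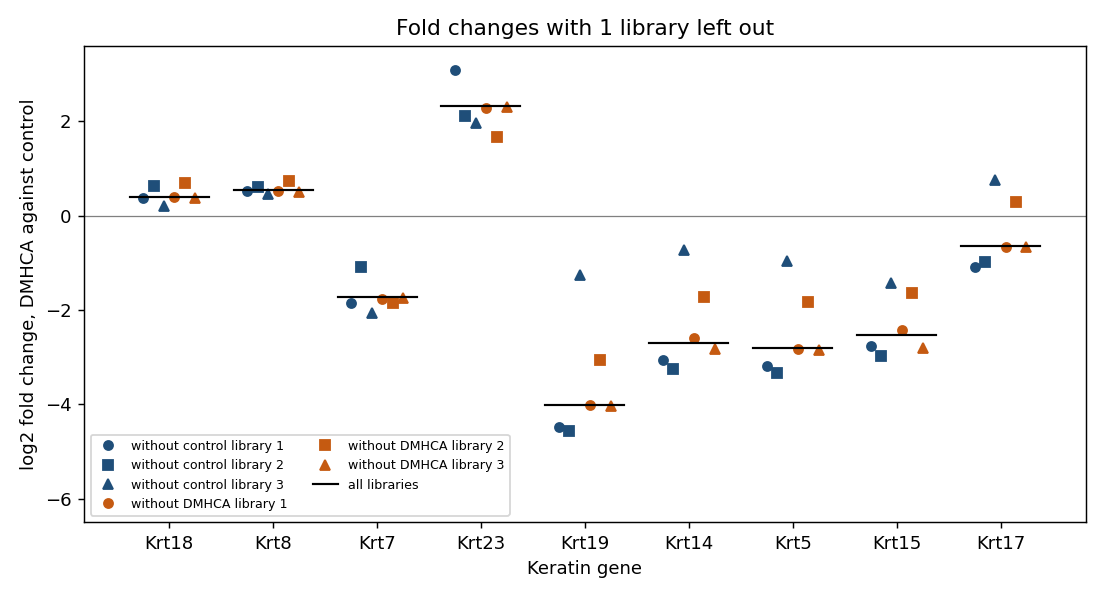
Points give the log2 fold change (DMHCA against control, normalized counts) of 9 keratins with each library left out in turn, and black lines give the value with all libraries. Krt19, Krt14, Krt5 and Krt15 move towards 0 without control library 3 or DMHCA library 2, Krt17 changes sign, and Krt8, Krt18, Krt7 and Krt23 keep their side of 0.

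The luminal list exceeded the basal list in every library, by a log2 ratio of summed TPM of 7.95, 9.80 and 5.48 in control libraries 1, 2 and 3 and of 8.68, 12.09 and 8.62 in DMHCA libraries 1, 2 and 3. The mean was 7.74 ± 2.17 in the control samples (SD, n = 3) and 10.37 ± 2.43 in the DMHCA samples (SD, n = 2), a difference of 2.63 with overlapping samples that was 0.91 without DMHCA library 2 and 1.49 without control library 3. With squamous keratins added to the basal sum, the log2 ratio was 6.88 ± 1.61 in controls and 8.00 ± 0.22 after DMHCA, again with overlap, and the difference of 1.12 was 0.27 without control library 3 and 1.88 without control library 2. Type I keratins exceeded type II keratins in all libraries, with a log2 ratio of 0.69 ± 0.16 in controls and 0.57 ± 0.12 after DMHCA, and control libraries 1 and 2 fell between the DMHCA samples. No test was applied to these ratios.

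Markers of the basal and myoepithelial layer outside the keratin family were measured beside these values. All 8 genes of the myoepithelial list were tested and had lower means after DMHCA (median log2 fold change -0.82), as had 10099 of all 19427 genes (median -0.03). Control library 3 held the highest TPM for 7 of the 8, and the highest normalized count for 27.4% of all genes tested. Trp63, the transcription factor of basal epithelium, was at 1.28, 0.38 and 4.87 TPM in the control libraries and at 0.55, 0.48 and 0.44 TPM in the DMHCA libraries. It was the 1 gene of the list with an unadjusted p under 0.05, which 7.61% of all genes had, and it had an adjusted p = 0.644 by edgeR. The most abundant members, Acta2 and Tagln, which smooth muscle and fibroblasts also express, had log2 fold changes of -0.20 (SE 0.32) and -0.43 (SE 0.28). Of the alveolar luminal list, Csn3, the kappa-casein gene, was at 12114 to 23866 TPM in all libraries, and Csn2, the beta-casein gene, was at 766, 15.2 and 13320 TPM in the control libraries and 62.6, 19.5 and 50.3 TPM in the DMHCA libraries. Csn2 thus shared with Krt19, Krt14, Krt5 and Krt15 its highest level in control library 3 and its next highest in control library 1. Other genes of the alveolar list, of which 4 had lower and 2 higher means after DMHCA, did not all share this order: Lalba, the alpha-lactalbumin gene, was at 760, 23.6 and 1424 TPM in control and 3799, 36.7 and 3962 TPM in DMHCA libraries, and Elf5, a transcription factor of alveolar cells, was highest in DMHCA libraries 1 and 3. The part of other cells in the keratin differences was not tested.

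**Figure D4:**
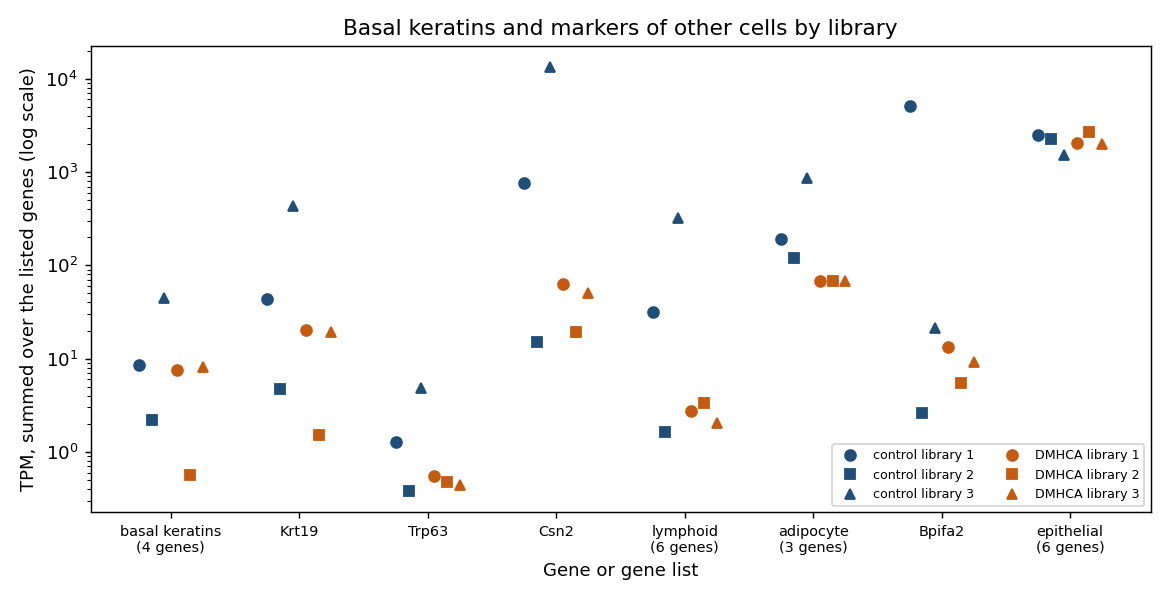
Points give TPM (log scale) in each library for the summed basal keratins, Krt19, Trp63, Csn2, the lymphoid and adipocyte lists, the salivary gene Bpifa2 and the epithelial list. Control library 3 is highest for the basal keratins (44.5 TPM), Krt19, Trp63, Csn2, the lymphoid and the adipocyte lists, control library 1 is highest for Bpifa2, and the epithelial list lies between 1542 and 2676 TPM.

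Squamous keratins were low apart from Krt10. The 13 members summed to 3.65 to 10.03 TPM, and Krt10, a type I keratin of suprabasal epidermis, gave most of it, with 3.46 to 9.23 TPM in control and 4.52 to 7.53 TPM in DMHCA libraries. Krt10 differed by -0.14 on the log2 scale (SE 0.53). Krt1, the type II partner of Krt10 in epidermis, had at most 0.38 TPM in any library. Krt6a, a keratin of activated and hyperproliferative epithelium that also marks some mammary luminal cells, had 36 counts in the control libraries (14, 3 and 19) and 3 in the DMHCA libraries (3, 0 and 0). Given as a description, the ratio of control to DMHCA counts was 11.8, with an exact 95% interval of 3.72 to 59.8 that covers counting error only, and the adjusted p was 0.644 by edgeR. Krt6a passed the filter on low counts only through the control samples, as did Krt78, so that both had to be lower after DMHCA. It was not tested without control library 1 or 3, where it no longer passed that filter. Krt13, a keratin of mucosal squamous epithelium, was at 0 in every library.

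Among the remaining keratins that were tested, Krt80 was lower in the DMHCA samples (log2 fold change -1.0, SE 0.62) and Krt71, of the inner root sheath, was higher (log2 fold change 0.82, SE 0.70), each with an adjusted p of at least 0.679 by edgeR. For Krt80 the groups were apart only narrowly on normalized counts, with 163.5 in the lowest control and 160.2 in the highest DMHCA sample, and overlapped in TPM, with 1.14 to 2.38 in the controls and 0.79 to 1.15 after DMHCA. For Krt71 the gap on normalized counts was narrower still, with 73.96 in the highest control and 74.06 in the lowest DMHCA sample. The 24 hair follicle keratins summed to 1.08 to 1.59 TPM, and 2 of them, Krt71 and Krt87, were expressed highly enough to be tested. Keratin-associated proteins of hair, 58 genes, summed to at most 0.76 TPM.

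Of the 54 keratins, 18 passed the filter on low counts, 28 were counted in at least 1 library without passing it, and 8 had 0 counts in every library. Control library 3 had counts for 42 keratins, against 25 to 29 in the other libraries, and it had counts for 31373 of all genes, against 25999 to 27315, with the lowest total count. In 8 keratins control library 3 was the only library with any count. It was the highest of the 5 samples for 8 of the 18 tested keratins, where it was so for 27.4% of all genes tested. Expected counts that were not whole, which mark reads divided between similar genes, were found for 15 keratins, among them Krt8, Krt18, Krt14, Krt5 and Krt17.

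Over the family, edgeR called 0 of the 18 tested keratins at an adjusted p under 0.05, and 0 of all 19427 genes (0.0%). At an unadjusted p under 0.05, 1 keratin was higher (Krt23), where 3.53% of all genes were, and 2 were lower (Krt7 and Krt6a), where 4.08% of all genes were. On normalized counts the groups did not overlap for 3 higher keratins (Krt8, Krt23 and, narrowly, Krt71), where 13.8% of all genes did not. They did not overlap for 4 lower ones (Krt7, Krt80, Krt78 and Krt6a), where 12.2% did not. Nothing can be read from Krt78 and Krt6a in these counts, because they entered the test through the controls. Among the 16 keratins with at least 1 sample of each group above the filter's cut, 1 was lower by the unadjusted p (Krt7). Of these 16, 2 were lower without overlap of normalized counts (Krt7 and, narrowly, Krt80). Krt14, Krt5, Krt15 and Krt87 had 3 control samples but 1 DMHCA sample above the cut. For these genes the control samples were enough to bring them into the test. The median log2 fold change was -0.82 over the 18 keratins and -0.03 over all genes tested, with 5 keratins higher and 13 lower, and the filter lets low members in more easily through the 3 control samples. DESeq2, the tool of the study, run with DMHCA libraries 1 and 3 kept apart, gave an adjusted p under 0.05 to Krt23 (adjusted p = 0.0132) and Krt7 (adjusted p = 0.0153), where 3.98% of all genes had one. DESeq2 on the 5 samples gave one to 0 keratins, with 1.22% of all genes, and the adjusted p was 0.0694 for Krt23 and 0.182 for Krt7.

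**Figure D5:**
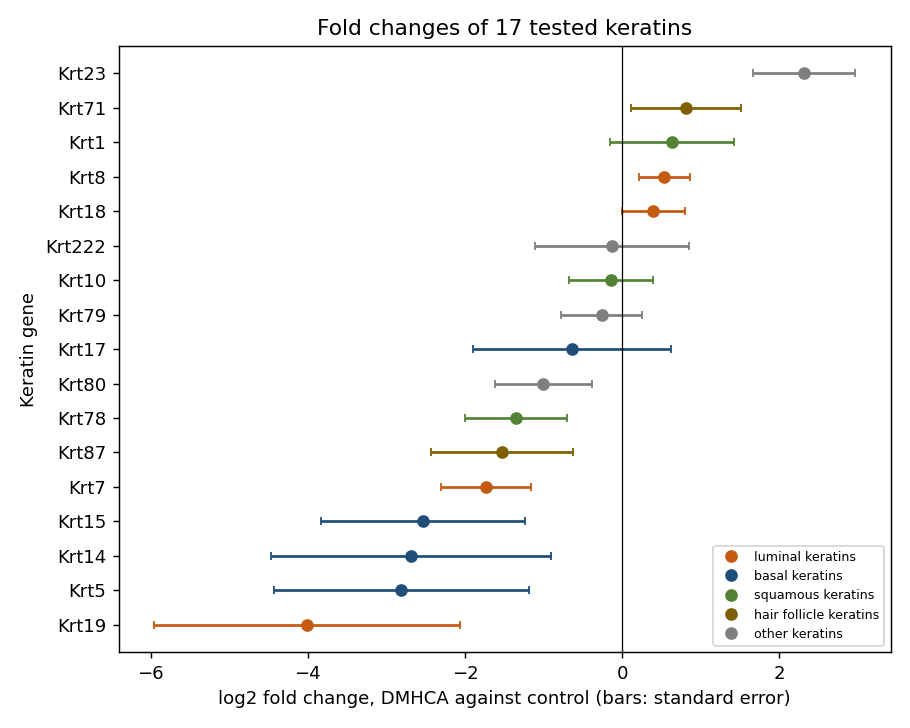
Points give the log2 fold change (DMHCA against control) of 17 tested keratins with bars of 1 standard error, colored by list. Krt6a is left out because its DMHCA libraries held 3 counts in all. Krt23 lies farthest to the right at 2.32, and Krt19 and the basal keratins Krt5, Krt14 and Krt15 lie farthest to the left with wide errors.

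Genes that anchor or replace keratin filaments were compared from fixed lists. Of 16 desmosome genes, which join keratin filaments between cells, 12 were tested with a median log2 fold change of 0.37, and at an unadjusted p under 0.05 there were 0 higher and 2 lower, where 3.53% of all genes were higher and 4.08% lower. Nothing can be read from Dsc3, since only control samples brought it past the filter on low counts. The lower ones were Pkp1, a plakophilin of stratified epithelium, with 56.8, 25.5 and 14.7 TPM in control and 11.3, 3.73 and 11.6 TPM in DMHCA libraries (log2 fold change -2.21, SE 0.72), and Dsc3, a basal desmocollin, with 0.20, 0.01 and 2.10 TPM in control and at most 0.01 TPM in DMHCA libraries, each with an adjusted p = 0.644 by edgeR. By mean normalized counts, which are not corrected for gene length, the highest members were Jup and Dsp. They had log2 fold changes of 0.15 (SE 0.45) and 0.96 (SE 0.56). Control library 3 held the highest TPM for 3 of the 16 desmosome genes.

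All 12 hemidesmosome and plakin genes, which tie basal keratins to the basement membrane, were tested, 7 with higher and 5 with lower means, and 0 had an unadjusted p under 0.05 by edgeR, against 7.61% of all genes. Those with the highest mean normalized counts, Dst and Itga6, had log2 fold changes of 0.05 (SE 0.45) and 0.71 (SE 0.38). Control library 3 held the highest TPM for 3 of the 12, among them Lamb3, a laminin chain of the basement membrane (-2.56, SE 1.21), and Col17a1, the hemidesmosomal collagen (-2.42, SE 1.36), whereas Dst and Itga6 had their lowest TPM there. Of 18 genes of the cornified envelope, the end stage of squamous epithelium, 8 were tested and 0 had an unadjusted p under 0.05 (7.61% of all genes), and Flg2, Hrnr, Sprr1b and Sprr2a1 were at 0 in every library. Its genes with the highest mean normalized counts, Lypd3 and Tgm1, had log2 fold changes of 0.53 (SE 0.42) and 0.23 (SE 0.61). Among 13 intermediate filament genes of other classes 9 were tested and 0 had an unadjusted p under 0.05 (7.61% of all genes). Nes, of neural and progenitor cells, differed by -0.35 on the log2 scale (SE 0.71). Vim, the filament of mesenchymal cells, was at 238, 263 and 376 TPM in control and 224, 289 and 221 TPM in DMHCA libraries, and its difference of -0.48 on the log2 scale (SE 0.35) was within the spread between samples.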

How the data were processed

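RNA of 3 control and 3 DMHCA libraries was compared for the 54 keratin genes. The authors trimmed adapters with Cutadapt (v2.9), aligned paired-end reads to Ensembl mm10 with Bowtie2 (v2.4.1) and counted them with RSEM (v1.3.1), and deposited expected counts (not normalized), TPM (per gene length and scaled to the same sum per library) and FPKM for each gene. The FPKM values of the authors were not used. Similar keratins share reads, which RSEM divides between them before deposition. The RSEM settings and the use of strand are not given in the sources used here.

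Expected counts were rounded to whole numbers, and DMHCA libraries 1 and 3 were summed because their biological coefficient of variation was under 0.1 and over 5 times below that of every other pair (over genes averaging 100 counts or more). Where TPM of this sample is given, it is the mean of both libraries. Counts were tested with edgeR 4.0.16 in R 4.3.3 (TMM, filterByExpr at 10 counts and a total of 15, quasi-likelihood F-test, Benjamini-Hochberg adjustment over 19427 genes). Each standard error (SE) is the absolute log2 fold change over the root of its F statistic. TMM scaling brought normalized counts to a common effective library size, the mean over samples. The alternatives were DESeq2 1.42.0, limma 3.58.1 on log2(TPM + 1) and log2(TPM + 0.1), other scalings, filters and dispersions, the 6 libraries as separate samples, and each library left out. The fit was tested on simulated counts. P-values measure the spread between these samples.

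All luminal and basal keratins were named. Other keratins were named if their mean reached 300 normalized counts in a group or if the unadjusted p was under 0.05. From each list outside the family the 2 genes with the highest mean normalized count were named, a rank without correction for gene length. This was not done for the lung, mesothelial and hair protein lists, which were near 0. Further genes were named where a count of 5 or fewer is given. Krt10, Krt1, Krt13, Krt80, Krt71, Krt78, Krt87, Lalba, Elf5, Lamb3, Col17a1, Esr1, Cited1, Foxa1, Pgr, Amy1, Dcpp1, Sftpb and Scgb3a2 were named after their values were seen. The members and lists were chosen with earlier results of these data known. Coordinates are from GENCODE mouse release 21 (GRCm38) and promoters from RefSeq (GRCm38.p6). Tables and plots were made with pandas 2.3.3, numpy 2.4.6 and matplotlib 3.10.9 in Python 3.11.15.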

Additional observations from a re-analysis of the deposited data

How the results depend on the processing

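Over 16 alternatives, the 10 named keratins that were tested gave 154 fold changes, of which 150 kept their direction and side of the threshold, 2 passed it (Krt7, with a log2 fold change of -1.78, and Krt23, with 2.13, in DESeq2 on 6 libraries) and 2 changed sign, those of Krt17 without control library 3 (0.75) and without DMHCA library 2 (0.30), within a range of -1.08 to 0.75 as libraries were left out. No keratin passed the threshold in the main fit, so a kept fold change needed only the same sign and again no pass. The size was free to move, as for Krt19, from -4.01 to -1.25 without control library 3, and Krt14, from -2.69 to -0.72. Genes with an adjusted p under 0.05 numbered 16 without a filter on low counts, 244 in DESeq2 on 5 samples and 846 on 6 libraries. Of the 846, 2 were keratins. Keratins lower at an unadjusted p under 0.05 numbered 7 of 46 without a filter (Krt14, Krt5 and Krt15 among them). They numbered 4 of 46 in DESeq2 on 5 samples and on 6 libraries. There was 1 with at least 1 CPM in 2 samples or with limma on TPM at either pseudocount. With any 1 library other than DMHCA library 2 left out there were 1 to 3. In either direction such a p was given to 2808 of 35390 genes without a filter. It was given to 2370 of 35367 in DESeq2 on 5 samples and 3652 of 35263 on 6 libraries. It was given to 1101 of 15197 genes at 1 CPM, and to 1585 and 1272 of 19427 with limma. Keratins higher numbered 2 in DESeq2 on 6 libraries, in edgeR on 6 libraries and in limma on log2(TPM + 1) (Krt23 and Krt8 in each). There was 1 (Krt23) with any 1 library other than DMHCA library 2 left out. In edgeR on 6 libraries 2912 of 18674 genes had such a p in either direction. The log2 ratio of type I to type II keratins differed by -0.11 between groups and by 1.41 without Krt18 and Krt8, the most abundant of each. The median log2 fold change of all genes was -0.03 in edgeR and 0.11 in limma on log2(TPM + 1). The cause of these changes was not tested.

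Control and DMHCA libraries share replicate numbers in the labels, but deviations of same-numbered libraries from their group means correlated at -0.0468, 0.316 and 0.330, so the numbers were not taken as pairs. With the replicate number as a block on 6 libraries, 0 genes had an adjusted p under 0.05 by edgeR. At an unadjusted p under 0.05, 6 keratins were lower (Krt19, Krt7, Krt14, Krt78, Krt15 and Krt5) and 1 higher. Such a p was given to 3207 of 18674 genes in either direction. This fit counted the nearly identical pair of DMHCA libraries as separate samples. Control library 1 correlated best with a differently numbered DMHCA library.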

Other observations

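Other lists of cell type markers gave the following values. Salivary genes were concentrated in control library 1, in which Amy1 was at 1273 TPM and Dcpp1 at 1174 TPM, against at most 16.6 and 77.7 TPM in the other libraries, while Aqp5, a water channel of secretory epithelium, was at 788 to 3239 TPM in all 6. Lung genes summed to at most 2.28 TPM, with Sftpb and Scgb3a2 at 0, and mesothelial genes to at most 6.61 TPM. Adipocyte genes were lower after DMHCA without overlap for 3 of 3 genes, as were 12.2% of all genes, and Fabp4, a fatty acid carrier of fat cells, was at 168, 113 and 780 TPM in control and 66.9, 65.5 and 67.5 TPM in DMHCA libraries. Adipoq, the adiponectin gene, was at 16.8, 4.84 and 67.3 TPM in control and 0.80, 1.45 and 0.73 TPM in DMHCA libraries (adjusted p = 0.644 by edgeR). Of the 6 lymphoid follicle genes, all were highest in control library 3, and Cd79a was at 102 TPM there, against at most 10.8 TPM elsewhere, and the complement receptor gene Cr2 at 34.8 TPM, against at most 4.48 TPM. The fibroblast genes Col3a1 and Col1a1 had log2 fold changes of -0.14 (SE 0.43) and 0.29 (SE 0.49). Skeletal muscle genes summed to 190 to 751 TPM, the endothelial list to 25.2 to 48.4 TPM and the immune list to 38.4 to 148 TPM, the last highest in control library 3. The hormone-sensing luminal list summed to 48.8 to 154 TPM. By mean normalized counts the 2 highest genes of muscle were Acta1 and Myh4, with log2 fold changes of -0.49 (SE 0.63) and -0.33 (SE 0.68). Those of endothelium were Pecam1 (-0.09, SE 0.31) and Cdh5 (0.81, SE 0.25, adjusted p = 0.644 by edgeR). Those of immune cells were Csf1r (-0.20, SE 0.28) and Ptprc (-1.71, SE 0.81). Those of hormone-sensing cells were the prolactin receptor gene Prlr (-0.08, SE 0.29) and Gata3 (0.25, SE 0.40). Of the 6 genes of the hormone-sensing list 5 had lower means after DMHCA (median log2 fold change -1.88), where 10099 of all 19427 genes had. Cited1 (-2.93, SE 1.51), Foxa1 (-3.05, SE 1.72) and Pgr (-2.36, SE 1.6) were among the 4 of 6 genes with their highest TPM in control library 3, whereas Gata3 was highest in DMHCA libraries 1 and 3 and Prlr in DMHCA library 2.

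Esr1, the estrogen receptor gene, was at 4.11, 3.63 and 4.72 TPM in control libraries and 1.93, 1.69 and 1.94 TPM in DMHCA libraries (log2 fold change -1.40, SE 0.33, adjusted p = 0.644 by edgeR). Dsg3, a desmoglein of basal and squamous epithelium named after its values were seen, was at 30.2 TPM in DMHCA library 2 and at 0.23 to 5.09 TPM in the other 5 libraries, although that library was lowest for Krt5 and Krt14.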
